A study of Mus musculus with 16 samples.

Results

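The myosin binding proteins form a small family of sarcomere proteins, and the genes examined here are *Mybph*, *Mybphl*, *Mybpc1*, *Mybpc2* and *Mybpc3*. They were taken by gene symbol, 5 of the 24421 genes in the count tables of gastrocnemius (Gas) and soleus (Sol) muscle. The family was chosen by a measured value, the higher level of *Mybph* in Sol muscle lacking LSD1, so the genotype contrast of the members in Sol, and every contrast of *Mybph* that rests on its Sol values, are given as a description without a test. The genotype contrast in Gas and those of the C-type genes between the muscles were tested.

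Poly(A) RNA of 16 muscle samples was sequenced, from 3 WT and 5 LSD1-mKO libraries for each muscle. LSD1 is the histone demethylase encoded by *Kdm1a*. All mice were C57BL/6 males of 8 weeks, all received tamoxifen (75 mg/kg on 5 days) and all received dexamethasone, a synthetic glucocorticoid that wastes muscle (1 mg/kg on 7 days, starting with day 4 of tamoxifen). LSD1-mKO mice were Lsd1 flox/flox and carried one copy of ACTA1-CreERT2, a tamoxifen-activated Cre under the human *ACTA1* promoter, which is active in differentiating and differentiated muscle cells; WT mice carried floxed *Lsd1* without the Cre. Cre itself and the loss of LSD1 therefore cannot be told apart, cells other than muscle kept the gene, and a muscle without dexamethasone was not analysed here.

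MyBP-C proteins lie in regular stripes on the thick filament, where they bind myosin, titin and actin and tune how readily myosin heads engage. There is a slow skeletal isoform (*Mybpc1*), a fast skeletal isoform (*Mybpc2*) and a cardiac isoform (*Mybpc3*). MyBP-H, from *Mybph*, is a shorter relative found in the same zone of some fast fibers, and the product of *Mybphl* is a related protein known from the atria of the heart.

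In the mouse genome (GRCm38), *Mybph* lies on the plus strand of chromosome 1 (134193448 to 134201232), *Mybphl* on the plus strand of chromosome 3 (108364911 to 108380057), *Mybpc1* on the minus strand of chromosome 10 (88518279 to 88605152), *Mybpc2* on the minus strand of chromosome 7 (44501699 to 44524656) and *Mybpc3* on the plus strand of chromosome 2 (91118144 to 91136516). The 5 genes thus sit on 5 chromosomes. The last exons of *Mybph* overlap, on the opposite strand, the last exon of *Adora1*, an adenosine receptor gene: 1162 of the 2329 exonic bases of *Mybph* (49.9%) are shared in the GENCODE annotation. Reads that fell on exons of both genes were left out by the counting, so the level of *Mybph* per base is a low estimate if the annotation of the authors holds the same overlap.

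The bases before the starts of *Mybph* and *Mybpc2* are shown because these were the members whose libraries did not overlap between the genotypes in Sol. The windows, in the direction of the gene and with annotated exon bases left out, are chr1:134193198-134193417 (plus strand) for *Mybph* and chr7:44524716-44524919 (minus strand) for *Mybpc2*, from RefSeq on build GRCm38.p6, in which all 5 members had an entry. Capitals mark E-boxes (CANNTG, bound by MyoD and related myogenic factors) and the M-CAT motif on either strand (CATTCC or GGAATG, bound by TEAD factors).
Mybph: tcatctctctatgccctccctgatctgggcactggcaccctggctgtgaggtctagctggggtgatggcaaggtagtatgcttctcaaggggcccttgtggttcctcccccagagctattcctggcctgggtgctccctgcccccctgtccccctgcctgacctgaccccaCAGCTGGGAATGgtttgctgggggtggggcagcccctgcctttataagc
Mybpc2: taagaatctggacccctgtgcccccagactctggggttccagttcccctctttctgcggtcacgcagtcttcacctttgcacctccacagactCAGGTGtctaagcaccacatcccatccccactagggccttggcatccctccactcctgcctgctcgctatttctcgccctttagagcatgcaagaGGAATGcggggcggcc
In *Mybph* an E-box of the form CAGCTG, 79 bases before the start, ran directly into an M-CAT motif whose first base was at 73. TATAAA was on the opposite strand only, where its reverse complement in the printed sequence began at 39. In *Mybpc2* the E-box was at 157 and the M-CAT motif at 62 bases before the start, and TATAAA was not in this window. Over the 250 bases before the start of 32851 genes, on both strands, 66.2% held CANNTG, 13% CAGCTG (a form of CANNTG, so the counts overlap), 12.6% CATTCC and 12.4% TATAAA. The glucocorticoid receptor motif AGAACA, in 16.1% of the windows, and the forkhead motif GTAAACA, in 3.17%, were in the window of neither gene. *Mybpc1* had 2 E-boxes and 1 AGAACA, *Mybpc3* had 3 and 1, and *Mybphl* had no match of any of these motifs. A match is a run of letters and not a bound site.

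The libraries held 10130415 to 24576377 reads assigned to genes. *Kdm1a* was lower in every LSD1-mKO library, with 12.0 to 17.7 CPM (reads of the gene per 1000000 reads of the scaled library) in Gas against 37.3 to 48.2 in WT, and 9.13 to 12.9 in Sol against 33.4 to 34.9. The difference was −1.56 on the log2 scale in Gas (SE 0.18, adjusted p = 0.0177, edgeR's quasi-likelihood test) and −1.66 in Sol (SE 0.14, adjusted p = 0.000574). In Gas its call was lost with the replicate number as a block (adjusted p = 0.226) and without any 1 of 6 libraries (adjusted p up to 0.134), all in the same direction. Ribosomal protein genes stood high in WT Gas replicate 3 (mean log2 CPM 8.60, against 7.14 and 7.41 in the other WT Gas libraries), in LSD1-mKO Gas replicate 5 (7.87, against 7.05 to 7.35) and in WT Sol replicate 2 (7.23, against 6.38 and 6.54). The skeletal muscle markers reached 59590 to 109700 CPM in sum and none of the 6 was at 0.

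The 5 members fell into a group of 3 that were read in every library and a pair at the edge of detection. *Mybpc3*, the cardiac isoform, had 0 reads in the 3 WT Gas libraries, 0 to 5 in LSD1-mKO Gas, 0 to 1 in WT Sol and 0 to 8 in LSD1-mKO Sol. *Mybphl* had 0 to 3 reads in any library. Neither passed the filter on low counts in any comparison, so the tests below cover 3 of the 5 members. A count of 0 allows up to 3 reads (counting error only), which is 0.122 to 0.296 per 1000000 assigned reads before the TMM scaling. The highest single value of *Mybpc3* was 0.471 CPM after scaling, in LSD1-mKO Sol replicate 2. The cardiac marker list came to 5.44 to 14.1 CPM in sum over the Gas libraries and 22.7 to 34.7 over the Sol libraries. Its part in the few *Mybpc3* reads was not tested.

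*Mybph* was a gene of Gas in WT mice. Its CPM was 253.5, 177.4 and 29.2 in WT Gas replicates 1 to 3, and 0.962, 1.55 and 0.868 in the WT Sol libraries (15 to 22 reads each). The 2 groups did not overlap, although the WT Gas libraries spanned 8.70-fold among themselves. The lowest of them, replicate 3, was the library with the high ribosomal protein genes.

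With LSD1 depleted, *Mybph* was read at an intermediate level in Sol as well. The 5 LSD1-mKO Sol libraries had 145.3, 56.5, 40.4, 20.1 and 15.6 CPM (replicates 1 to 5), each above every WT Sol library. In Gas the LSD1-mKO libraries had 371, 279.7, 107.1, 86.6 and 92.9 CPM, a range in which 2 of the 3 WT Gas libraries lay. By mean, the order was LSD1-mKO Gas (187.5 ± 130.2, SD, n = 5), WT Gas (153.3 ± 114.1, n = 3), LSD1-mKO Sol (55.6 ± 52.8, n = 5) and WT Sol (1.13 ± 0.37, n = 3), and only the last step in that order was one without overlap of the libraries.

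*Mybpc1*, the slow isoform, had the opposite preference for the muscles and no separation of the genotypes. It was at 1421, 1278 and 998 CPM in WT Gas and at 5510, 4388 and 5882 CPM in WT Sol. The LSD1-mKO libraries had 900, 1537, 1309, 1603 and 1746 CPM in Gas and 2015, 4585, 4432, 6261 and 6834 CPM in Sol. Within either muscle the genotypes overlapped, and every Sol library was above every Gas library. In each muscle the lowest library was LSD1-mKO replicate 1.

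*Mybpc2*, the fast isoform, was the most abundant member in Gas. It was at 7527, 6823 and 4706 CPM in WT Gas, and at 10760, 9099, 7677, 9092 and 9709 CPM in LSD1-mKO Gas. In WT Sol it was at 155.6, 496.2 and 322 CPM, and in LSD1-mKO Sol at 1117, 1259, 1245, 772.9 and 1115 CPM. All 4 groups were apart: the lowest LSD1-mKO library lay above the highest WT library in either muscle, by a narrow margin in Gas.

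**Figure D1:**
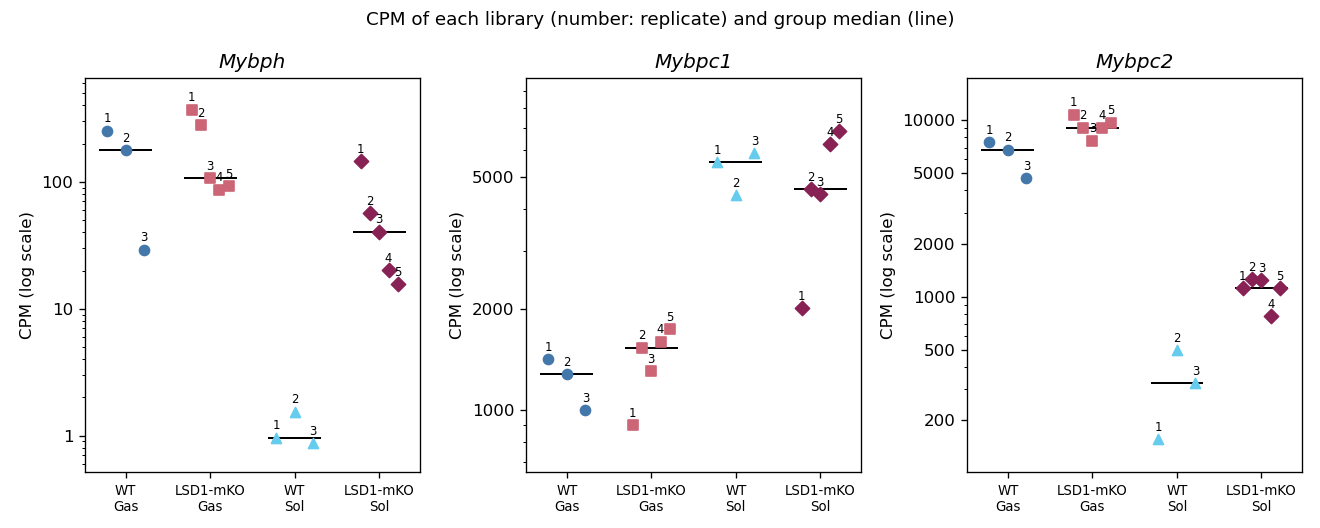
CPM of *Mybph*, *Mybpc1* and *Mybpc2* in each of the 16 libraries (points, labelled with the replicate number), by genotype and muscle, on log axes, with the group median as a line. The LSD1-mKO Sol libraries of *Mybph* (15.6 to 145.3 CPM) lie above the WT Sol libraries (0.868 to 1.55 CPM), and those of *Mybpc2* likewise, while *Mybpc1* overlaps between the genotypes.

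The first comparison asked how the members differed between LSD1-mKO and WT in Gas, the fast-dominant muscle. None of the 3 members tested was called by edgeR's quasi-likelihood test at an adjusted p of 0.05, where 0.0307% of the 13040 genes tested were called. Of the 3, 1 had an unadjusted p under 0.05, as had 9.06% of all genes, and DESeq2 and edgeR's exact test called 0. *Mybpc2* was 1.46-fold higher (log2 fold change 0.55, SE 0.24, adjusted p = 0.548), and all 5 LSD1-mKO libraries lay above the WT libraries. Genes without overlap and higher in LSD1-mKO made up 4.13% of those tested. *Mybpc1* differed by 0.20 (SE 0.25, adjusted p = 0.759) and *Mybph* by 0.29 (SE 0.67, adjusted p = 0.880). The sign of the *Mybph* difference rested on single libraries: it was −0.19 without WT Gas replicate 3 and −0.12 without LSD1-mKO Gas replicate 1, and it was −0.01 without the 2 Gas libraries high in ribosomal protein genes. Fibroblast markers, 4 of 4 lower but none called, came to 1091 to 1655 CPM in sum in WT Gas and 765.5 to 903.6 in LSD1-mKO Gas; their part in these values was not tested. In a whole muscle, fewer cells of a type and less RNA per cell cannot be told apart.

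The second comparison was the same contrast in Sol, the slow-dominant muscle, which had led to the choice of the family. *Mybph* was 49.6-fold higher in LSD1-mKO (log2 fold change 5.63, SE 0.85). Without LSD1-mKO Sol replicate 1, whose level of 145.3 CPM was the highest, the log2 difference was 4.90. *Mybpc2* was 3.35-fold higher (1.74, SE 0.33), and *Mybpc1* differed by −0.14 (SE 0.33), with the sign turned to 0.08 without LSD1-mKO Sol replicate 1. Of the 13342 genes tested in Sol, 6.33% were higher in LSD1-mKO without overlap of the libraries and 0.967% were called by edgeR; 2 of the 3 members were among the former, and nothing is read from this count because the contrast chose the family. In the same muscle the summed levels of 2 cell type lists did not overlap between the genotypes either: the cardiac list was at 22.7 to 25.2 CPM in WT and 26.2 to 34.7 in LSD1-mKO, with *Nppb* at 0 reads in WT, and the satellite cell list (*Pax7* and *Myf5*) was at 4.97 to 5.48 and 5.82 to 7.85 CPM. No gene of these 2 lists was called by edgeR, and 1 of 5 tested had an unadjusted p under 0.05. The share of all genes at this p is not given for Sol, so this count and the later Sol counts have no background. DESeq2 and the exact test each called 1, *Tnnt2*. The part of these lists in the members' values was not tested. Whether the effects in Gas and Sol differ was not tested, because the Sol values chose the family.

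**Figure D2:**
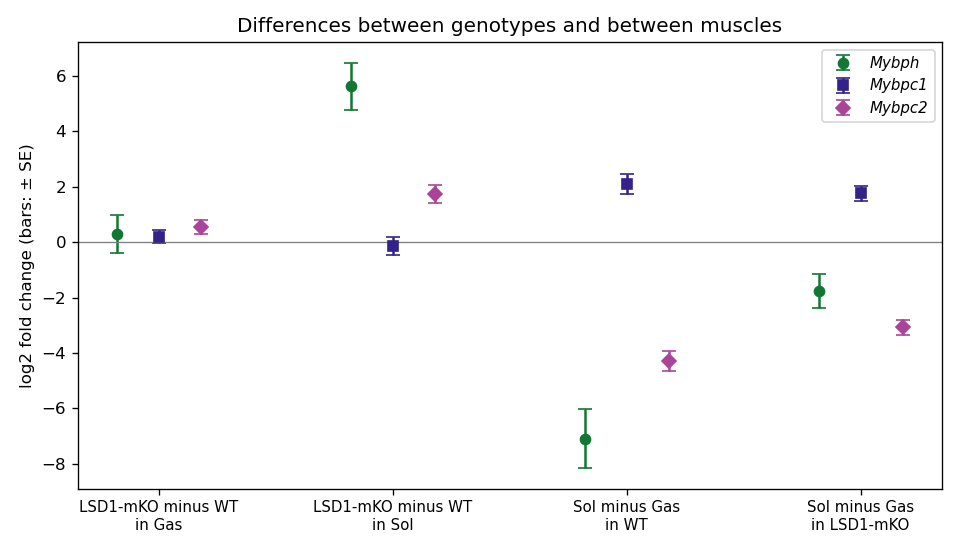
Log2 fold change (points) with its standard error (bars) of *Mybph*, *Mybpc1* and *Mybpc2* in the 4 comparisons. In Sol, *Mybph* was 5.63 and *Mybpc2* 1.74 higher in LSD1-mKO than in WT, and in WT mice the values of Sol minus Gas were −7.10 for *Mybph* and −4.29 for *Mybpc2*.

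The third comparison set Sol against Gas in WT mice. Both C-type genes tested passed the threshold and had no overlap of the libraries, where 17% of the 13749 genes tested passed and 30.3% had no overlap. *Mybpc2* fell 19.6-fold from Gas to Sol (log2 fold change −4.29, SE 0.37, adjusted p = 1.60e-06 by edgeR's quasi-likelihood test) and *Mybpc1* rose 4.27-fold (2.09, SE 0.36, adjusted p = 0.000730). *Mybph* was 137.5-fold lower in Sol (−7.10, SE 1.06), given without a test because its low WT Sol values are one side of the contrast that chose the family. Without the libraries high in ribosomal protein genes (WT Gas replicate 3 and WT Sol replicate 2 among them) the differences were −7.88 for *Mybph* and −4.93 for *Mybpc2*. With LSD1 depleted, the 2 C-type genes kept these directions: *Mybpc2* fell 8.41-fold from Gas to Sol (−3.07, SE 0.27, adjusted p = 5.67e-07) and *Mybpc1* rose 3.40-fold (1.77, SE 0.27, adjusted p = 0.000174), both without overlap, in a comparison that called 24.5% of the genes and left 20.9% without overlap. *Mybph* was 3.37-fold lower (−1.75, SE 0.62, given without a test), with overlap of the libraries, and −2.54 without LSD1-mKO Sol replicate 1. The Gas and Sol libraries stand in separate tables with different library tags, so that muscle and any difference in how these sets of libraries were handled cannot be told apart.

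The balance of the 2 skeletal isoforms gives a value within each library that does not depend on its scaling. Per kilobase of exon, *Mybpc2* stood 5.91 to 6.69 times over *Mybpc1* in WT Gas and 6.97 to 14.98 times in LSD1-mKO Gas. In WT Sol the ratio was 0.035 to 0.142 and in LSD1-mKO Sol 0.155 to 0.695, so the fast isoform stayed below the slow one in every Sol library. In both muscles each LSD1-mKO library had a higher ratio than each WT library, by narrow margins. Nothing is read from the separation in Sol, because that contrast chose the family. How often the ratios of other gene pairs separate in this way was not computed. LSD1-mKO replicate 1 had the highest ratio in either muscle (14.98 and 0.695), and the other LSD1-mKO Gas libraries lay between 6.97 and 7.42. *Mybph* per kilobase was 0.961% to 5.22% of *Mybpc2* in WT Gas, 1.48% to 5.35% in LSD1-mKO Gas, 0.418% to 0.959% in WT Sol and 2.17% to 20.2% in LSD1-mKO Sol.

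**Figure D3:**
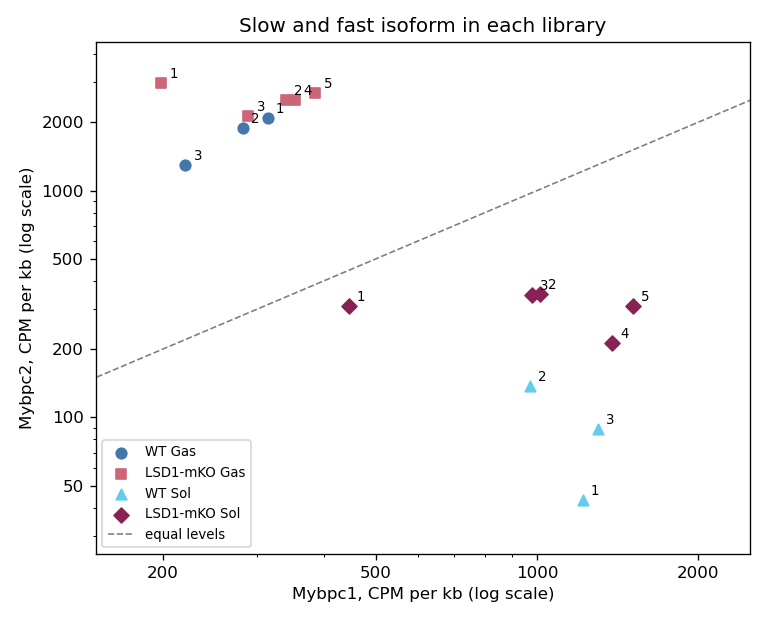
*Mybpc2* against *Mybpc1* in each library, in CPM per kilobase of exon on log axes, with the replicate numbers and a dashed line of equal levels. All Gas libraries lie above the line (ratios of 5.91 to 14.98) and all Sol libraries below it (0.035 to 0.695).

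Among the LSD1-mKO libraries, replicate 1 set the extremes in both muscles. It had the highest *Mybph* (371 CPM in Gas and 145.3 in Sol) and the lowest *Mybpc1* (900 and 2015 CPM), while its *Mybpc2* was the highest in Gas and the median value in Sol. *Myog*, which encodes the myogenic factor myogenin, was also highest there, at 81.0 CPM in Gas, where the other LSD1-mKO libraries had 5.25 to 22.6, and at 48.6 CPM in Sol, where they had 6.66 to 13.3. Over all genes, deviations from the group means correlated between the LSD1-mKO Gas and Sol libraries of the same number (r of 0.212 to 0.359 across genes in 5 of 5 pairs), which did not hold for WT (−0.515 to 0.123).

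**Figure D4:**
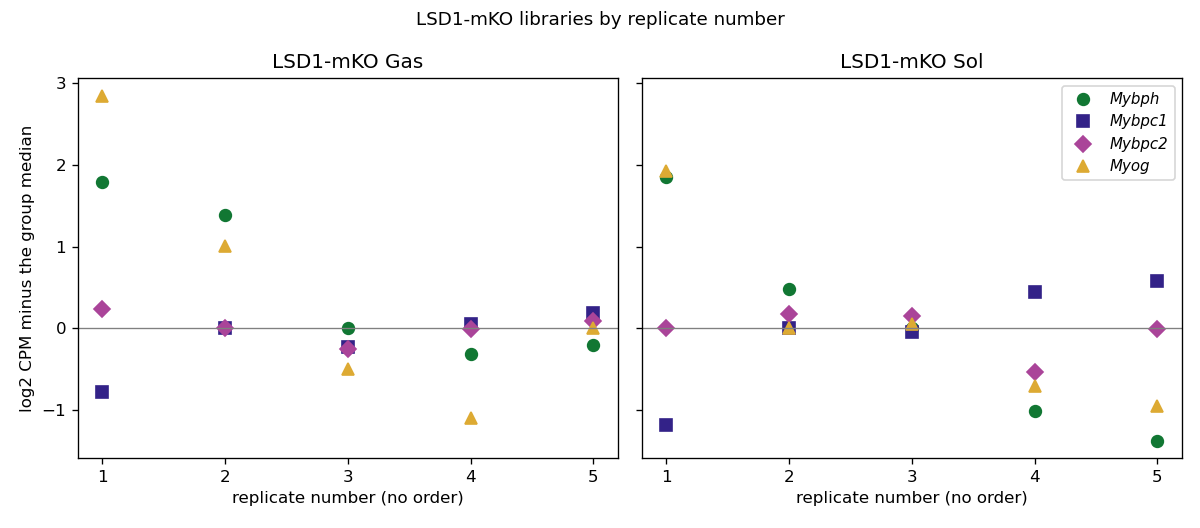
Log2 CPM of *Mybph*, *Mybpc1*, *Mybpc2* and *Myog* in the 5 LSD1-mKO libraries of each muscle, minus the median of the group, by replicate number. Replicate 1 has the highest *Mybph* and *Myog* and the lowest *Mybpc1* in Gas and in Sol.

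*Myog* is also a neighbour of *Mybph*, with its start 88756 bases from the end of *Mybph*. Within 100 kb of *Mybph* the tables hold 5 other genes, which were looked up after the values of *Myog* had been seen. *Myog* was 1.67 higher in LSD1-mKO Sol on the log2 scale (SE 0.62, adjusted p = 0.231, edgeR's quasi-likelihood test) and 1.78 higher in LSD1-mKO Gas (SE 0.83, adjusted p = 0.555), with overlap in both. Without LSD1-mKO replicate 1 these differences were 0.87 in Sol and 0.65 in Gas. With the replicate number as a block *Myog* was called in Sol (1.93, adjusted p = 0.0309), where the other alternatives left it uncalled, with adjusted p up to 0.457. *Ppfia4*, which encodes a liprin-family scaffold protein and lies 95550 bases away, was at 0.810 to 2.04 CPM in WT Sol and 3.76 to 14.9 CPM in LSD1-mKO Sol, and rose by 2.66 (SE 0.53, adjusted p = 0.0431). That call was lost with robust fitting (adjusted p = 0.0543 by the quasi-likelihood test) and without any 1 of 5 libraries (adjusted p up to 0.166); in Gas the difference was 1.57 (adjusted p = 0.418), without overlap. *Adora1* was at 0.702 to 2.20 CPM in WT Sol and 1.78 to 5.56 in LSD1-mKO Sol, 1.41 higher (SE 0.45, adjusted p = 0.165 by the quasi-likelihood test). DESeq2 called this difference (adjusted p = 0.0364), and the other alternatives did not, with adjusted p up to 0.329. In LSD1-mKO Sol the CPM of *Adora1* was below every library of *Mybph*, while in WT Sol the ranges of the 2 genes overlapped. Per kilobase of exon, *Adora1* was at 0.308 to 0.960 and *Mybph* at 6.69 to 62.4 CPM in LSD1-mKO Sol. In WT Sol these ranges were 0.121 to 0.380 and 0.373 to 0.663. *Adora1* is annotated on the other strand, but the counting named no strand option, and reads on exons of both genes were left out. *Chil1* and *Chit1* had at most 31 and 8 reads.

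Most other genes of the thick filament differed between the muscles. Of the 10 genes of that list (myosin heavy and light chains, titin and the kinase of the regulatory light chain), 0 were called between the genotypes in Gas or Sol by the edgeR test named above, where 4 had an unadjusted p under 0.05 in Gas and 2 in Sol; DESeq2 called 1 and 0, and the exact test 1 and 1. The gene called in Gas was *Myl1*, a fast light chain (log2 difference −1.47), and that called in Sol *Myh4* (2.60). The summed level of the list did not overlap between the genotypes in Gas, at 75400 to 92450 CPM in WT and 38950 to 71330 in LSD1-mKO, and overlapped in Sol (51280 to 56660 and 27080 to 58700). The medians of their log2 fold changes were −0.15 in Gas and −0.27 in Sol, against 0.01 and −0.01 over all genes tested. Between the muscles 5 were called higher and 4 lower in Sol than in Gas in WT, and also in LSD1-mKO. *Myh4*, the heavy chain of the fastest fibers, had a log2 difference of −9.27 between WT Sol and WT Gas (SE 0.94, adjusted p = 7.01e-06), beside −7.10 for *Mybph* and −4.29 for *Mybpc2*. *Myh7*, the heavy chain of slow fibers, was 5.45 higher (SE 0.27, adjusted p = 3.53e-09), beside which *Mybpc1* was 2.09 higher.

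Lists of other roles gave the members' surroundings. Of the 6 M-band and obscurin family genes, 0 were called between the genotypes (3 at an unadjusted p under 0.05 in Gas and 2 in Sol, DESeq2 called 2 and 1, the exact test 0 and 1). Between the muscles 1 was called higher and 2 lower in Sol in WT, and 1 higher and 3 lower in LSD1-mKO. In WT Sol *Myom3*, an M-band protein, was 3.31 higher (adjusted p = 9.75e-05) and *Ckm* differed by −1.475 (adjusted p = 0.000492), both by edgeR's quasi-likelihood test. Of the 5 genes of myosin folding and assembly, 0 were called between the genotypes (0 and 1 at an unadjusted p under 0.05; 0 by the other tools), and *Fhl1* was 2.40 higher in WT Sol than in WT Gas (adjusted p = 0.0122), while *Smyd2*, a lysine methyltransferase, had a difference of −1.68 (adjusted p = 0.00129). All 8 slow fiber genes were called higher in Sol than in Gas in either genotype. Of the 10 fast fiber genes all but *Myh1* had values below 0 in both genotypes, and 8 were called lower in WT and 9 in LSD1-mKO.

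In Sol 3 of the 10 fast fiber genes were above 0 between the genotypes: *Myh4* (2.60), *Actn3* (1.38) and *Mylpf* (0.50). The list had a median of −0.30 and a range of −1.43 (*Myh1*) to 2.60, and 0 were called (3 at an unadjusted p under 0.05, DESeq2 0, exact test 1). The relation of these genes to the *Mybpc2* difference was not tested. In Gas 2 of 10 were above 0, with a median of −0.79 and 0 called (5 at an unadjusted p under 0.05; DESeq2 1, exact test 1). The slow fiber list had 0 of 8 called in both muscles (2 at an unadjusted p under 0.05 in Gas and 0 in Sol; the other tools 0), with medians of 0.44 and −0.13. Among the 10 developmental and denervated fiber genes, which include the embryonic and neonatal myosins, acetylcholine receptor subunits and *Myog*, all 10 were above 0 in Sol (median 1.02) and 8 of 9 tested in Gas (median 1.78), and 1 was called in each muscle by edgeR's quasi-likelihood test. An unadjusted p under 0.05 was reached by 9 in Sol and 5 in Gas, and DESeq2 and the exact test each called 5 in Sol and 4 in Gas, among them *Chrna1*, *Myh8* and *Myl6b* in both muscles. Over all genes, DESeq2 and the exact test called 605 and 560 of 13342 in Sol and 132 and 104 of 13040 in Gas. In Gas 9.06% of all genes had an unadjusted p under 0.05. That share is not given for Sol, so the Sol counts at this p have no background beside them. The sum of the list did not overlap between the genotypes, at 437 to 479.1 CPM in WT and 930.3 to 1181 in LSD1-mKO in Sol, and at 74.6 to 102.9 and 168.2 to 472.9 in Gas. The gene called by the quasi-likelihood test was *Myl6b*, an essential myosin light chain, which rose by 1.79 in Sol (SE 0.26, adjusted p = 0.0155) and 1.90 in Gas (SE 0.18, adjusted p = 0.00398). The call in Gas was lost with the replicate block (adjusted p = 0.216) and without WT Gas replicate 1 or 2 (0.0776 and 0.0591), and that in Sol without WT Sol replicate 1 or 3 (0.0637 and 0.0531). These lists were written with earlier results of the data known, so their counts are no independent support.

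**Figure D5:**
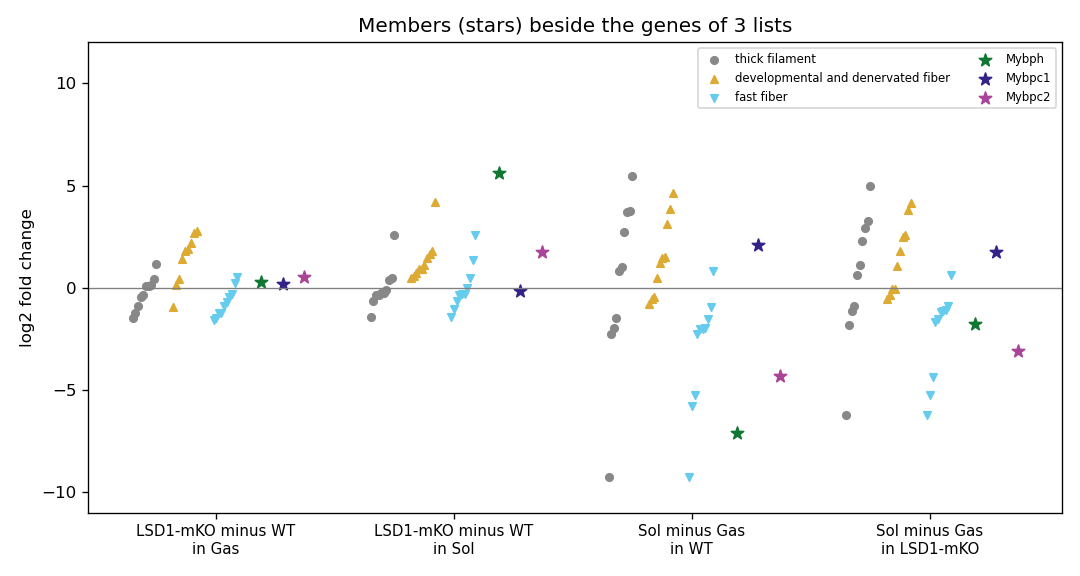
Log2 fold changes in the 4 comparisons of *Mybph*, *Mybpc1* and *Mybpc2* (stars) and of the single genes of the thick filament, developmental and denervated fiber, and fast fiber lists (small symbols, sorted within a list). In Sol, *Mybph* (5.63) lies above every gene of these lists, of which the highest was at 4.19. Nothing is read from this rank, because the Sol difference of *Mybph* chose the family.

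The genes most like each member were taken by the correlation of log2 CPM over the 16 libraries, which share library, depth and the contrast of the muscles. For *Mybpc2* these were *Actn3* (r = 0.992), the alpha-actinin of fast fibers, *Gapdh* (0.972), a glycolytic enzyme, and *Atp1b2* (0.966), a subunit of the sodium pump. *Actn3* was at 305.2 ± 270.6 CPM (SD, n = 3) in WT Sol and 806.6 ± 186.6 (n = 5) in LSD1-mKO Sol, a log2 difference of 1.38 that was not called (adjusted p = 0.246). For *Mybpc1* they were *Myh2* (0.986), the heavy chain of type IIA fibers, *Lrrn1* (0.984), a membrane protein with leucine-rich repeats, and *Adck3* (0.979), an atypical kinase of coenzyme Q synthesis. *Myh2* was, like *Mybpc1*, widest in LSD1-mKO Sol, from 3363 to 15670 CPM.

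For *Mybph* the nearest genes over the 16 libraries were *Carns1* (0.919), which makes carnosine, *Gamt* (0.916), which makes creatine, and *Slc35e4* (0.905). Over the 8 Sol libraries alone they were *Ttc39c* (0.997), *Plekho1* (0.989), *Mtus2* (0.987), *Tmem62* (0.986) and *Rhoc* (0.985), a set that holds none of the first 3. Each of these 5 had the LSD1-mKO Sol libraries above the WT Sol libraries, as *Plekho1* with 44.0 to 95.2 CPM against 15.5 to 22.9 and *Rhoc*, a small GTPase, with 60.8 to 143.6 against 28.4 to 33.2. Among all genes tested in Sol, 6.33% had this. Nothing is read from it, because the genes were picked for their likeness to *Mybph*, whose genotypes did not overlap there. These correlations rest on the step between the groups and are given without a p.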

How the data were processed

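Single-end reads of 75 bp came from poly(A) RNA libraries. The authors mapped them to mm10 (STAR) and, per the file headers, assigned them to exons of the iGenomes UCSC annotation by featureCounts 1.5.2, with no strand option named and with reads of several genes or places left out. The deposited tables hold raw read counts per gene. The authors' tables of comparisons hold log2 fold changes and p-values, which were not used. All count columns were mapped to samples by their names, with 0 columns left over, and groups and replicate numbers come from the labels. Nothing says which libraries share a mouse, so p-values measure the spread between these samples.

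Counts were analysed with edgeR 4.0.16 in R 4.3.3: filterByExpr with its minimum count of 10, TMM scaling, the two-sided quasi-likelihood F-test, and Benjamini-Hochberg adjustment over all genes tested, with calls at 0.05. Genotypes were compared within a muscle (8 libraries) and muscles within a genotype (all 16 libraries in one fit of 4 groups). The contrast of *Mybph* between WT muscles, planned as a test, is given without one, because its WT Sol values took part in choosing the family. The SE is the log2 fold change over the square root of F. CPM use TMM factors of all 16 libraries, and CPM per kilobase the exonic length of GENCODE M21, available for 95.6% of the genes, not the annotation of the count tables. The members of this family and all lists were chosen with earlier results of these data known. By rule the text names the members, *Kdm1a*, called genes of the lists (at most 2 a list), and the genes most correlated with each member (mean of at least 50 reads). It also names the neighbours of *Mybph* and some list genes that the main test did not call, which that rule does not cover. Alternatives were RLE scaling, no filter, DESeq2 1.42.0, edgeR's exact test, robust fitting, the replicate block, other sets of libraries and each library left out. Replicate numbers paired the LSD1-mKO libraries across muscles by the correlation of their deviations (over 0.1 in 5 of 5 pairs), not the WT libraries (1 of 3). The scripts were tested on simulated data.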

Additional observations from a re-analysis of the deposited data

Results flagged for a closer look

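Of 18 checks of 9 measures in the LSD1-mKO groups of 5 libraries, 2 found a library far from the rest of its group by Dixon's ratio on the log2 scale (95% level), where chance flags about 1 in 20. In LSD1-mKO Sol replicate 4, *Mybpc2* was at 772.9 CPM, where the other 4 libraries lay between 1115 and 1259. It was still above the highest WT Sol library (496.2 CPM). In LSD1-mKO Gas replicate 1, *Mybpc2* per kilobase was 14.98 times *Mybpc1*, where the other 4 libraries lay between 6.97 and 7.42; this library had the lowest *Mybpc1* and the highest *Mybpc2* of its group. Its ratio in Sol (0.695) was also the highest of its group but within the limit of the check.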

How the results depend on the processing

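The calls of *Mybpc1* and *Mybpc2* between the muscles of either genotype held with their direction under every alternative run, with the largest adjusted p (edgeR) at 0.00442 for *Mybpc1* and 0.00295 for *Mybpc2*. In Gas no member was called under any alternative, and *Mybph* turned to −0.011 without the libraries high in ribosomal protein genes and ranged from −0.19 to 0.86 with each library left out. In Sol, *Mybpc1* ranged from −0.29 to 0.078 with each library left out.

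The number of genes called moved more than the members did. In Gas it was 4, and 10 without the filter, 132 with DESeq2, 104 with the exact test, 62 with all 16 libraries in one fit, and 1 (without WT Gas replicate 1 or 2) to 7 (without WT Gas replicate 3) with each library left out. In Sol it was 129, and 336 without the filter, 605 with DESeq2, 560 with the exact test, 23 without the library high in ribosomal protein genes, and 11 (without WT Sol replicate 3) to 228 (without LSD1-mKO Sol replicate 5) with each library left out. In WT muscle it was 2337, and 1011 with only the 2 groups compared and 1132 (without WT Sol replicate 1) to 2839 with each library left out. *Adora1* in Gas turned from −0.10 to 0.0058 without the libraries high in ribosomal protein genes and ranged from −0.54 to 0.11 with each library left out. The causes were not tested.

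With the replicate block the count was 412 in Sol and 3 in Gas, and *Mybph* was 6.02 and 1.02 higher, with *Myog* called in Sol and *Kdm1a* and *Myl6b* no longer called in Gas. Within a muscle the numbers were only shared: deviations of same-numbered libraries correlated at −0.16 to 0.31, over 0.1 in 3 of 6 pairs. Between muscles the block changed no member's call. *Mybphl* and *Mybpc3* are limited by depth, since 3 reads correspond to 0.122 to 0.296 per 1000000 assigned reads before scaling.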
